A study of Mus musculus and Rattus norvegicus with 2 samples.

Results

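Fragments from the 5′ end of the valine transfer RNAs with the anticodons CAC and AAC were followed in purified sperm taken from the caput, the first segment of the epididymis, where sperm begin to mature after leaving the testis. They were chosen from the files as every sequence whose first 14 bases matched, with at most 1 mismatch, the start of the most abundant mouse sequence listed under an Rfam tRNA record. That choice rests on the mouse read counts, so the mouse level of the leading form, and any ratio that uses it, is a description. The rule held for 374 of 650877 distinct sequences of the rat library and 414 of 914516 of the mouse library, 666 in all, of which 122 were listed in both. The groups were 1 library from Sprague Dawley rats, young adults of 450 g, and 1 library from C57BL/6 mice aged 2 months, both untreated as far as the labels say, each from the RNA fraction of 18 to 45 nt. How many animals went into a library is not stated, so no difference below has a replicate check, and the printed 95% intervals cover counting error only.

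A tRNA carries an amino acid to the ribosome and reads the codon with the anticodon, which lies in the middle loop of the folded molecule. Cleavage in or near that loop gives a 5′ and a 3′ part, and 5′ parts are a known, abundant class of small RNA in mature sperm, thought to be gained in part during passage through the epididymis. CAC and AAC tRNAs of valine largely share their 5′ part. The exact leading fragment ends before the anticodon, bases 34 to 36, and cannot be assigned to either. Records that reach base 34 differ at some earlier bases, so some variants match a single record before the anticodon. The RefSeq table of the mouse lists 11 genes named n-TVcac and 8 named n-TVaac. Of these 19 genes, 10 lie on a single chromosome, with Abt1, Vmn1r223, Zfp322a, Btn1a1, Prss16 and H2ac12 as their nearest protein-coding genes. The genomic sequence of the genes was not used here.

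The exact fragments that carry the results are shown from the 5′ end, with the last base in capitals. They differ only in where they stop.
33 nt: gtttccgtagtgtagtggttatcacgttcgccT
32 nt: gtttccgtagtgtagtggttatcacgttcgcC
31 nt: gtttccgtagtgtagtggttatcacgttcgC
30 nt: gtttccgtagtgtagtggttatcacgttcG
24 nt: gtttccgtagtgtagtggttatcA
23 nt: gtttccgtagtgtagtggttatC

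The files list a sequence only if it lies within 2 mismatches of a record, and the records differ between the species. The bases of each record were read back from the changes printed beside its sequences. The records that bear on the listing are shown over their first 33 bases, with the bases that differ from the 33-nt fragment in capitals.
rat Rfam tRNA record 1: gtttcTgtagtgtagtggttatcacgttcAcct
mouse Rfam tRNA record 1: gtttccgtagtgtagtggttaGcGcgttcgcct
mouse Rfam tRNA record 2: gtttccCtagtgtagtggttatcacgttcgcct
The leading rat record, which took 97.2% of rat member reads, already lies 2 mismatches from the exact 33-nt fragment, T6C and A30G, written as the base of the record, the position from the 5′ end and the base of the read. A further change leaves such a read without a record. Of the 99 possible single-base changes of the 33-nt fragment, 6 lay within 2 mismatches of a rat record, and 99 within 2 mismatches of a mouse record. For the 32-nt fragment all 96 possible changes could be listed in both libraries, in rat because of a piRNA record with the same 32 bases. The exact fragments of 18 to 33 nt lay within the limit in both libraries, so they and the 32-nt variants carry the comparisons.

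The libraries held 14652889 listed reads in rat and 11760708 in mouse. In lists of marker miRNAs, all 3 names of the male germ line had reads in both libraries, with a sum of 900.3 reads per 1000000 listed reads (rpm) in rat and 14.2 rpm in mouse. All 5 names of the epithelium had reads as well, 339 rpm in rat and 207 rpm in mouse. Leukocyte names summed to 17.2 and 0.765 rpm (miR-142a at 0 in both, miR-223 at 0 in mouse), red cell names to 5.53 and 0.340 rpm (miR-451a at 0 in rat, miR-451 and miR-144 at 0 in mouse) and endothelial names to 26.96 and 15.7 rpm (miR-126 at 0 in both), in each pair rat and then mouse. The lists hold alternative names, miR-142a beside miR-142, miR-451a beside miR-451 and miR-126a beside miR-126. A 0 under either name of such a pair does not show that the miRNA was absent, and all endothelial reads stood under miR-126a. The part of other cells in the results on valine fragments was not tested, and in such bulk RNA fewer cells of a type and less RNA per cell cannot be told apart.

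Valine 5′ fragments made up a smaller share of the rat library than of the mouse library. They held 406547 reads in rat, 2.77% of listed reads (2.77 to 2.78), against 589237 reads in mouse, 5.01% (4.998 to 5.02). The log2 ratio of rat over mouse was -0.85 (-0.86 to -0.85). Among reads under Rfam tRNA records the gap was wider, with 4.94% in rat and 21.1% in mouse and a log2 ratio of -2.09 (-2.10 to -2.09). The mouse total contains the reads of SNORD58, a snoRNA with no listed rat read, and without these the ratio over listed reads was -1.46. Whether SNORD58 could be listed in rat was not worked out, so the lack of rat reads does not set its level there. Counted over exact fragments of 18 to 33 nt alone, which could be listed in both libraries, the ratio was -0.75 (-0.75 to -0.74).

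Among the exact fragments, the one lower in rat was the 33-nt form, which ends at the base just before the anticodon. The rule chose this form by its mouse reads, so its ratio is a description. The form had 315375 reads in rat, 21523 rpm, against 509872 reads in mouse, 43354 rpm, and was 2.01-fold lower in rat. It was the most abundant member in both libraries, with 77.6% of rat and 86.5% of mouse member reads. The 7 shorter exact forms with at least 100 reads over both libraries were all at least 2-fold higher in rat. Of 5276 sequences of any kind listed in both libraries at that minimum, 51% were, with a median log2 ratio of 1.10. The 32-nt form had 72457 reads in rat, 4945 rpm, against 26909 reads in mouse, 2288 rpm. Its log2 ratio was 1.11 (1.09 to 1.13), near that median. Of the exact 32-nt and 33-nt reads, 18.7% (18.6 to 18.8) in rat and 5.01% (4.95 to 5.07) in mouse were 32 nt long. This balance does not depend on the library totals.

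**Figure D1:**
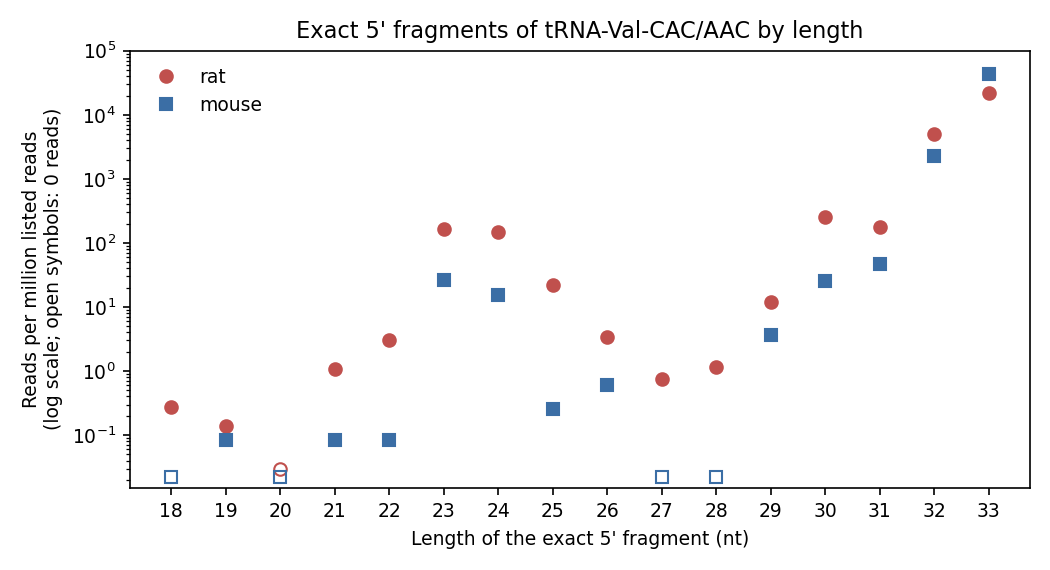
Reads per 1000000 listed reads (log axis) of each exact 5′ fragment of tRNA-Val-CAC/AAC against its length in nt, for the rat library (circles) and the mouse library (squares), 1 library each; open symbols at the bottom mark 0 reads. The rat library lies above the mouse library at 30 to 32 nt and at 23 to 24 nt, and below it at 33 nt.

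Below 32 nt, the exact forms fell into a group at 30 and 31 nt and a group at 23 and 24 nt. The 30-nt form had 249.7 rpm in rat and 25.1 rpm in mouse, 9.96-fold higher in rat. The 31-nt form had 178.9 rpm in rat and 47.2 rpm in mouse, 3.79-fold higher. In the shorter group, which ends within the D arm, the 23-nt form had 162.0 rpm in rat and 26.1 rpm in mouse, and the 24-nt form had 148 rpm in rat and 15.4 rpm in mouse. Between the groups, the 25-nt form had 319 rat and 3 mouse reads, and the 26-nt form 50 and 7. The 29-nt form had 178 rat and 43 mouse reads. The 27-nt and 28-nt forms had 11 and 17 rat reads and no mouse read. All exact forms of 18 to 31 nt held 11471 reads in rat and 1394 in mouse, a log2 ratio of 2.72 (2.64 to 2.80).

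Over members of every sequence, 32 and 33 nt held 96.9% of rat and 98.3% of mouse reads. Members of 34 nt or longer were 26 reads, 0.00640%, in rat and 8780 reads, 1.49%, in mouse. The longest member was 35 nt in rat and 41 nt in mouse. The leading 35-nt form of mouse had 219 reads and lay over 2 mismatches from every rat record. At 35 nt, rat had 1 read, of another form. The exact 34-nt form that continues into CAC lies at least 3 mismatches from every rat record, so its count of 0 in rat does not set its level there.

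The valine end can be set beside the other abundant tRNA ends, grouped by their first 14 bases under Rfam tRNA records. Gly-GCC fragments, the most abundant of these, peaked at 30 nt in rat with 53.6% of their reads and at 32 nt in mouse with 36.01%. Glu-CTC fragments peaked at 31 nt in both libraries, with 54.7% in rat and 38.0% in mouse. Valine fragments peaked at 33 nt in both, with 78.9% of the reads under tRNA records in rat and 93.3% in mouse. Per listed read, Gly-GCC had a log2 ratio of 1.42 and Glu-CTC of 1.40. That of valine under the same records had the opposite sign, -0.87. The valine end was chosen by its mouse reads, so this contrast is a description. Of the 12 other ends with at least 1000 reads in each library, 4 had a lower share in rat. These were the later starts of the same valine fragments, from base 2 with a log2 ratio of -1.10 and from base 3 with -1.39, and Lys-CTT from base 1 with -0.69 and from base 2 with -0.59. The median of the 12, which also include later starts of Gly-GCC and Glu-CTC, was 1.07. How the listing limit acts on the other ends was not worked out, so it may shape their ratios and lengths. Gly-GCC had 243 listed sequences in rat and 1157 in mouse, and Glu-CTC 1233 in rat and 223 in mouse.

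**Figure D2:**
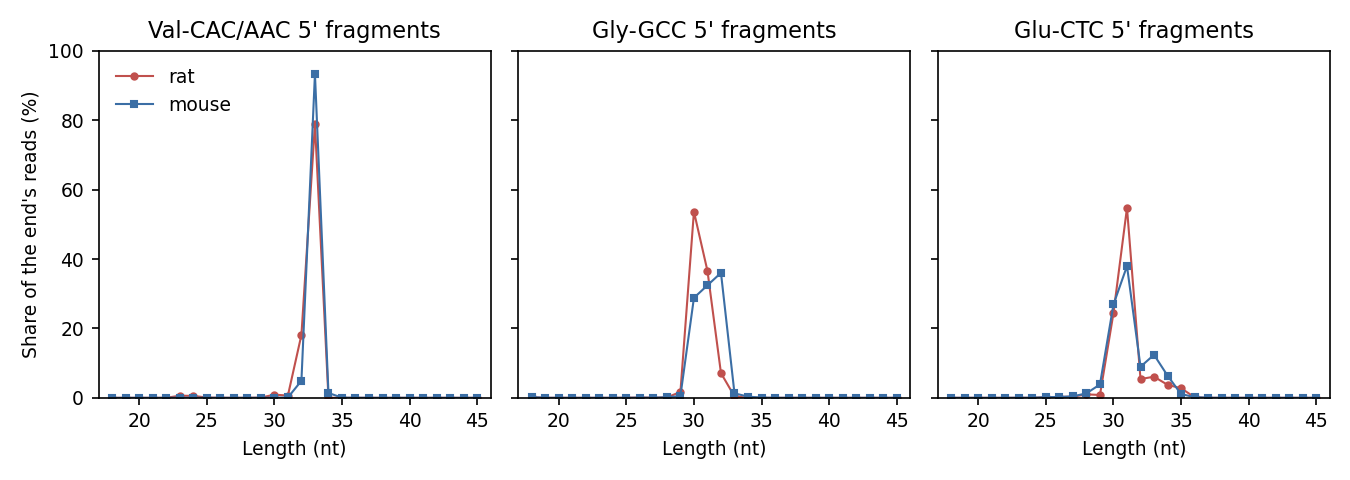
Share of reads (%) at each length (nt) for the 5′ fragments of Val-CAC/AAC, Gly-GCC and Glu-CTC under Rfam tRNA records, in the rat library (circles) and the mouse library (squares), 1 library each. Valine reads stand at 33 nt in both libraries, with 78.9% in rat and 93.3% in mouse, while Gly-GCC reads spread over 30 to 32 nt and Glu-CTC reads peak at 31 nt.

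The length profile of valine was compared with each of the 12 others by the overlap of the shares at each length. The most alike were Lys-CTT with a mean overlap of 34.9% over both libraries, an end left unnamed here with 21.5% and Glu-CTC with 16.1%. The valine profile of rat overlapped that of mouse by 84.1%, against a median of 74.9% over the other ends and a range of 25.4% to 89.7%. The other ends are not all different tRNAs. They include later starts of valine itself, with 86.0% from base 2 and 78.1% from base 3. Later starts of Gly-GCC, Glu-CTC and Lys-CTT are also among them, and the highest value was Gly-GCC from base 2. These are descriptions of 1 library per species.

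The start of the fragment varied little. Of reads that began exactly at one of the first 11 bases, 96.4% in rat and 95.1% in mouse began at base 1. Starts at base 2 followed with 12520 reads in rat, 2.98%, and 20795 reads in mouse, 3.41%. Most of these also ended at the same place as the 33-nt form, with 10232 rat and 18748 mouse reads of 32 nt. No listed read carried bases ahead of base 1 in either library, but such a read may have no record to be listed under, so this count of 0 does not set a level.

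In 32-nt reads, single-base changes were most frequent at positions 26, 27 and 7 in both libraries, with position 27 ahead of 7 in rat and behind it in mouse. Among these reads, a base other than G at position 26 occurred in 2.85% (2.74 to 2.97) of 77886 rat reads and 4.69% (4.45 to 4.94) of 28965 mouse reads. The median over all 32 positions was 0.0494% in rat and 0.0380% in mouse. All 3 other bases were found at position 26, in rat as G26A with 1.36%, G26T with 0.968% and G26C with 0.525%, and in mouse as G26T with 2.45%, G26A with 1.72% and G26C with 0.521%. Position 26 joins the D stem to the anticodon stem. In many eukaryotic tRNAs its guanosine is dimethylated, a modification known to be misread in reverse transcription, and whether it was modified here was not measured. The 32-nt form with G26A is identical to the rat piRNA record rno_piR_005900, while no mouse record matched a changed position 26 alone.

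Position 27 differed between the libraries in the other direction. T27C stood in 2.39% (2.29 to 2.50) of rat and 0.535% (0.454 to 0.626) of mouse 32-nt reads. As the only change it had 1763 rat and 29 mouse reads, a log2 ratio of 5.61 (5.08 to 6.19), the highest among members with at least 1000 reads over both libraries. The next highest were the exact 30-nt form at 3.32 and the exact 24-nt form at 3.27. In mouse, T27C mostly came with T20C, in 125 of 155 reads with T27C at 32 nt, and the pair was together in 1 rat read. The 32-nt form with only this pair of changes is identical to mouse Rfam tRNA record 3. T27C alone lay 1 mismatch from the nearest record in both libraries. Rat Rfam tRNA records 3 and 4 also have C at position 27, with T or A at position 26. Position 7 was changed in 0.591% of rat and 0.946% of mouse reads, mostly as G7A, with 0.385% in rat and 0.635% in mouse. Single-base variants of the 32-nt form came to 6.76% (6.58 to 6.94) of rat and 6.64% (6.35 to 6.93) of mouse reads, intervals that overlap. Over all members of 30 nt or longer, 1.67% of rat and 6.69% of mouse reads carried a change in the first 30 bases, with nearly all 33-nt variants outside the listing limit in rat. A read with further changes can pass the limit in either library.

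**Figure D3:**
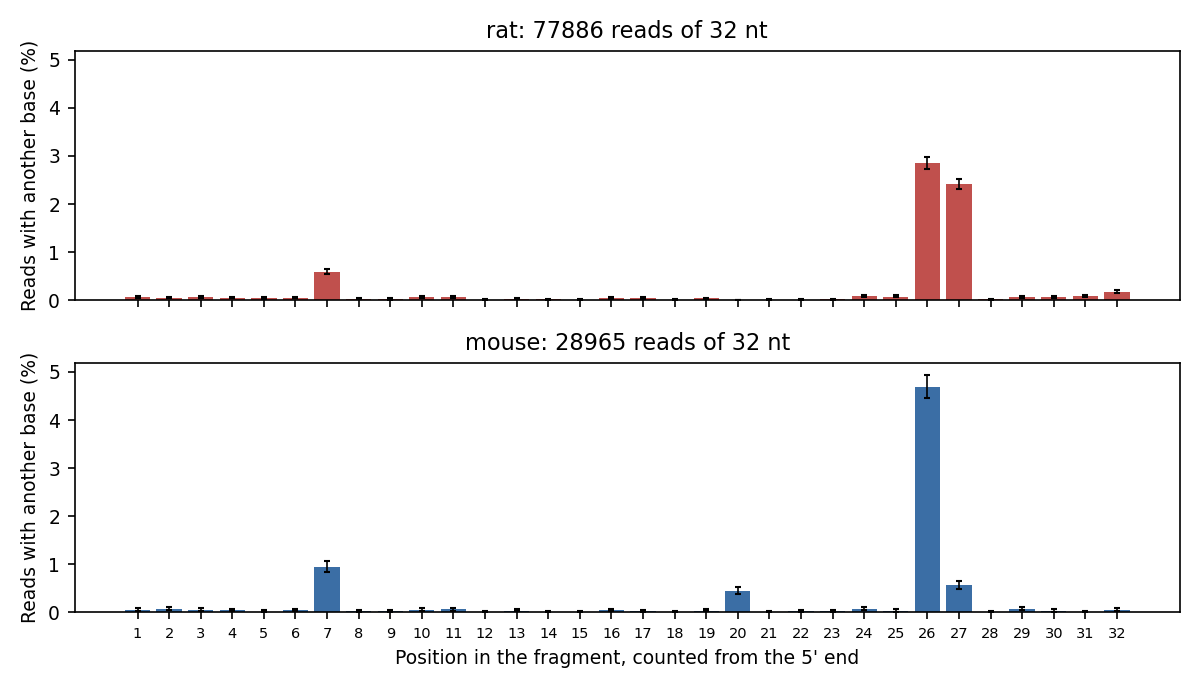
Share of 32-nt reads (%) with a base other than that of the leading fragment, against the position from the 5′ end, in the rat library (upper panel) and the mouse library (lower panel); bars are shares and whiskers exact 95% intervals for counting error. Position 26 stands highest in both libraries, at 2.85% in rat and 4.69% in mouse, and position 27 is second in rat, at 2.41%.

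The 33-nt variants at positions 26 and 27 in mouse are shown with the changed bases in capitals, beside the T27C form that led the 32-nt variants in rat.
33-nt G26T: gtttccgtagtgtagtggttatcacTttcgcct
33-nt G26A: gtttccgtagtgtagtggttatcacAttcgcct
33-nt G26C: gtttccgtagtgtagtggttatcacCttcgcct
33-nt T20C T27C: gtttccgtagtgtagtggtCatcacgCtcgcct
32-nt T27C: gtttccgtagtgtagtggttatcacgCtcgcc
The G26T form had 11062 mouse reads, the G26A form 7857, the G26C form 3371 and the form with T20C and T27C 2471. The G7A form, not shown, had 3529. Of these forms, the one with T20C and T27C is identical to a mouse Rfam tRNA record. None was listed in rat, where each lies over 2 mismatches from the nearest record, so these counts of 0 do not set a level in rat and no fold is given. Position 26 was changed in 4.13% of mouse reads of 33 nt, followed by position 7 with 1.08%, position 33 with 0.589% and position 27 with 0.579%. In rat, the share at position 26 was 9.36% (8.50 to 10.3) at 30 nt, 3.63% (2.98 to 4.38) at 31 nt and 2.85% at 32 nt. In mouse it was 3.89% (2.09 to 6.56) at 30 nt, from 334 reads, below the 6.29% at positions 20 and 27 of the same reads, and 7.41% (5.46 to 9.79) at 31 nt, from 607 reads. Most of the rat share at 30 nt was G26A, with 8.35% of reads. As the only change, G26A at 30 nt matches the start of rno_piR_005900.

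Reads that pass base 33 tell the valine tRNAs apart, and their first anticodon base is shown in capitals, with the whole anticodon for the 36-nt forms.
34 nt ending in C: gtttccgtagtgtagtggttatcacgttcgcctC
34 nt ending in G: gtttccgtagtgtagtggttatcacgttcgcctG
34 nt ending in A: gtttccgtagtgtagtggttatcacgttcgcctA
36 nt with CAC: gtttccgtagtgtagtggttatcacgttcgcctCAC
36 nt with GAC: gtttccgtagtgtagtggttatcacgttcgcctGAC
All 4 bases at position 34 could be listed in mouse after the exact 33 bases. Of 8780 mouse reads that reach this base, 6724 had C, 76.6% (75.7 to 77.5), as in CAC, 2007 had G, 22.9% (21.98 to 23.8), 47 had T and 2 had A. Reads with A, the genomic base of AAC, were thus 0.0228% (0.00276 to 0.0823). Beyond the anticodon, 243 mouse reads of 36 nt or more read CAC in 160 cases and GAC in 83, and AAC in none. The share of G by read length was 22.3% at 34 nt, 29.2% at 35 nt, 57.7% (48.9 to 66.1) of 137 reads at 36 nt and 3 of 23 reads at 37 nt. From 38 to 41 nt, 1 read of 50 at 39 nt had G and no other did. At these lengths the exact form with CAC already lay 2 mismatches from the nearest mouse record. The same form with G could not be listed, so these counts do not set a level of G. From 34 to 37 nt, G exceeded C at 36 nt alone. In eukaryotes the first anticodon base of tRNA-Val-AAC is converted to inosine, which is read as G in sequencing, and these reads carry no measure of inosine itself. In rat, only A could be listed after the exact 33 bases, and the 14 such reads were 53.8% of 26, so the anticodons could not be compared between the species.

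By reads, nearly all of the fragments stood under tRNA records, while most distinct rat sequences stood under piRNA records. Rfam tRNA records took 98.5% (98.4 to 98.5) of rat and 100% (99.9994 to 100) of mouse member reads, in 119 rat and 414 mouse sequences. The rest in rat were 6151 reads in 255 sequences under piRNA records, 4714 of them under rno_piR_005901 and 1436 under rno_piR_005900. None of the 6151 reads was an exact start of the leading fragment. They were mostly its 32-nt variants, with 5288 reads. The exact 32-nt form is identical to rno_piR_005901 but was listed under a tRNA record with 2 mismatches. All members were on the plus strand.

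Of all 666 members, 49 had at least 100 reads over both libraries, and a difference of 2-fold stands in for a test. Of these, 31 were at least 2-fold lower in rat, 63.3%, where 30.5% of 9067 listed sequences of any kind were, and 12 were at least 2-fold higher, 24.5%, where 56.8% were. Of the 31, 28 had no rat read, and all 28 lay more than 2 mismatches from every rat record. Over the 21 members listed in both libraries, 3 were lower, 14.3%, against 27.2% of 5276 sequences listed in both, and 12 were higher, 57.1%, against 51%. The median log2 ratio of these 21 was 1.11, and that of all sequences listed in both was 1.10. In mouse, 47753 member reads, 8.10%, belonged to sequences over 2 mismatches from the rat records, and in rat 83 reads, 0.0204%, to sequences over 2 mismatches from the mouse records.

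**Figure D4:**
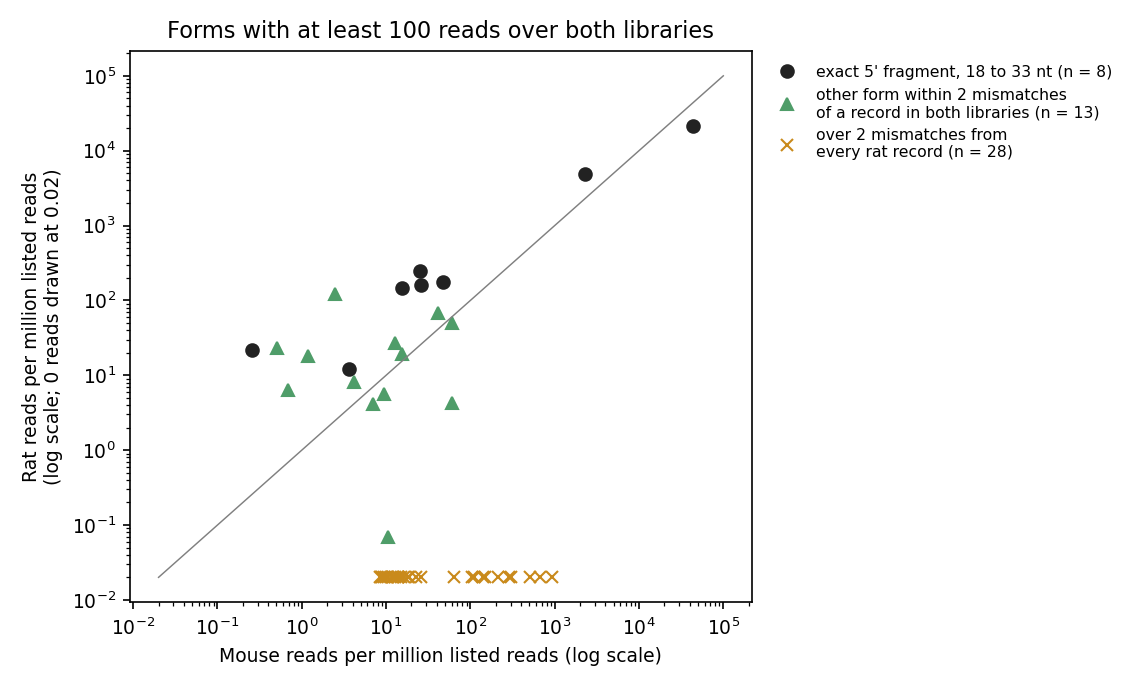
Rat against mouse reads per 1000000 listed reads (log axes) for the 49 members with at least 100 reads over both libraries; points on the line are equal, and 0 rat reads are drawn at 0.02. The 28 crosses without rat reads are all over 2 mismatches from every rat record, and of the 8 exact fragments (circles) 7 lie above the line and the 33-nt form below it.

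At the edge of the rule, members with 1 mismatch in the first 14 bases held 1308 rat reads in 179 sequences and 9966 mouse reads in 197. Just outside it, sequences with 2 mismatches held 65 rat reads in 19 sequences and 155 mouse reads in 28. Members with a single read were 197 in rat and 128 in mouse.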

How the data were processed

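Small RNA of 18 to 45 nt from Trizol-extracted sperm RNA was sequenced on an Illumina instrument, per the labels' protocols. Bowtie 0.12.7 and the builds mm9 and rn5 appear, without a role, in the submitters' processing notes. How adapters were trimmed is not given in the sources used here. Deposited values are whole read counts per distinct sequence, with 1 record each at up to 2 mismatches, per the file headers. A closing line of the mouse file with the sum of its counts was left out. Sequence numbers without a line, 48.7% in rat and 59.4% in mouse, were not analysed here.

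Members were found by the first 14 bases, minus-strand rows turned. Records were rebuilt from the printed changes. Rates are per 1000000 listed reads; for 2-fold counts 0.5 read was added, with a minimum of 100 reads over both libraries. Shares have Clopper-Pearson and ratios exact conditional binomial 95% intervals; reads have no molecular identifiers, so these cover counting error only. Named were the 5 leading forms per library, the leading form of each length from 28 to 36 nt, the 3 highest and 3 lowest ratios at 1000 reads or more, the 5 leading changes per library, record classes with 1% of member reads, the 3 most abundant ends and the 3 ends most alike in length. Members and lists were chosen with earlier results of these data known. Names of tRNA ends are by their known 5′ sequences. Mouse gene names are from the RefSeq table on GRCm38.p6, matched by symbol; its positions served to find each gene's chromosome and nearest protein-coding gene, and none is printed. Analyses used Python 3.11.15, pandas 2.3.3 and SciPy 1.17.1, tested on simulated data.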

Additional observations from a re-analysis of the deposited data

How the results depend on the processing

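Of 80 recomputed values, 47 stayed within the counting interval of the reported value (for counts of sequences, within 1.5 times), and the interval is narrow at this depth. With no mismatch in the first 14 bases, the log2 abundance ratio was -0.83 and the share under tRNA records in rat 98.7%. The 33-nt share in rat was then 77.9%. The changed share was 1.38% in rat and 5.08% in mouse (reported: 1.67% in rat and 6.69% in mouse). Of 35 members tested, 19 were lower and 12 higher in rat (reported: 31 lower and 12 higher of 49). Under tRNA records alone, the ratio was -0.87, the 33-nt share in rat 78.9% and the changed share in rat 0.191%, since the variants of rat stand under piRNA records. With at least 10 reads per sequence, the tRNA share in rat was 98.6%, the 33-nt share in mouse 93.4%, the changed share 1.55% in rat and 6.60% in mouse, and the share of A at base 34 was 100% of 14 reads in rat and 0% of 8664 in mouse. At 1000 reads over both libraries, 11 of 19 members were lower and 6 higher in rat. The share over all listed sequences at this minimum was not worked out. Both counts of lower members include forms over 2 mismatches from every rat record. Without the 33-nt leading form, the ratio was -0.15, the tRNA share in rat 93.3%, the 33-nt share 0.645% in rat and 50.5% in mouse, and the changed share 7.83% in rat and 49.9% in mouse. As a share of tRNA reads the ratio was -2.09, and without SNORD58 -1.46. Counted as distinct sequences it turned to 0.34 (0.14 to 0.55), and the cause was not tested. The remaining settings were chosen after the data were seen. Exact starts gave -0.75 and 33-nt shares of 79.0% in rat and 94.7% in mouse. A or G at base 34 gave 22.9% in mouse. Reads of 32 nt gave changed shares of 6.74% in rat and 7.04% in mouse. Of 21 members listable in both libraries, 3 were lower and 12 higher in rat. No paired analysis was possible because each species has 1 library.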
